A study of Mus musculus with 2 samples.

Results

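A group of 10 antioxidant genes, among the 32285 gene rows of the count matrices, were followed through the cell types of the mouse lung. They were taken by symbol: Nqo1, Hmox1, Gclc, Gclm, Gsr, Txnrd1, Prdx6, Sod3, Gpx3 and Cat. The study asked how loss of the transcription factor Cebpa from alveolar type 2 (AT2) cells, the surfactant-secreting progenitors of the alveolus, alters lung homeostasis and fibrosis. Lung cell suspensions of 3 mice per genotype were each sequenced as 1 pooled 10x Genomics 3′ single-cell library. The Cebpa KO mice carried floxed Cebpa alleles and Sftpc-CreERT2, a tamoxifen-inducible Cre driven from the gene of surfactant protein C and hence meant for AT2 cells. The Cebpa FF controls carried the floxed alleles without the Cre. Per the methods of the study, deletion was induced by 5 daily tamoxifen injections of 75 mg/kg, a further round of weekly injections was given for late time points, and lungs were taken 26 weeks after the first injection. The methods give mixed genetic backgrounds and an age of 3 months unless stated otherwise, and the age of these mice at harvest is not given in the sources used here. No label tells the mice of a library apart, so each genotype was 1 sample. No test between genotypes could be made, no p-value is given, and the intervals below cover counting error only, not the spread between mice.

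As background, most of these genes are classical targets of NRF2 (encoded by Nfe2l2), a transcription factor that KEAP1 holds at low levels until electrophiles or oxidants modify KEAP1 cysteines. NRF2 then pairs with small MAF proteins on antioxidant response elements and raises genes for glutathione synthesis, thioredoxin reduction, quinone reduction and heme breakdown. The lung is exposed to high oxygen and inhaled oxidants, and its epithelium, its fluids and its matrix each hold their own defences. Sod3, Gpx3 and Cat act on superoxide and hydrogen peroxide and are usually counted as antioxidant enzymes rather than as core NRF2 targets.

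The Cebpa FF library held 11721 barcodes and 69200420 unique molecular identifiers (UMIs, 1 per captured transcript), and the Cebpa KO library 13373 barcodes and 64697396 UMIs. Cells were assigned to cell types, here called gates, by the raw UMIs of 170 marker genes for 28 types, none of which was 1 of the 10 antioxidant genes, and 93.0% of the Cebpa FF and 82.4% of the Cebpa KO cells passed into a gate. In the AT2 gate the median depth was 20542 UMIs in 485 Cebpa FF cells and 1400.5 UMIs in 298 Cebpa KO cells. In the ciliated gate it was 16527 UMIs in 209 cells and 1319.5 UMIs in 274 cells. Cebpa itself, the deleted gene, stood at 153 CPM (UMIs of a gene per 1000000 UMIs of the gate) in Cebpa FF AT2-gated cells and at 122 CPM in Cebpa KO ones, a log2 ratio of -0.33 (95% counting interval -0.56 to -0.12). The 3′ reads do not tell whether a transcript came from the deleted allele. The Cebpa KO library held 539 alveolar macrophage-gated and 447 neutrophil-gated cells, against 3 and 3 in the Cebpa FF library. The labels name a FACS procedure and the methods describe CD45 removal for epithelial sorts, and whether these suspensions were sorted or depleted of CD45+ cells is not given in the sources used here, so these numbers are not read as the make-up of the lung. Levels are given for gates of at least 20 cells, which were 18 in the Cebpa FF and 26 in the Cebpa KO library, and 17 gates reached that number in both. The libraries shared 45 barcodes, and the counts of member pairs beyond 2-fold given below were the same with and without them. All levels are CPM of the summed UMIs of a gate. They count 3′ ends of transcripts and are compared between cells for 1 gene, not between genes.

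The antioxidant genes differed in the cell types where they were highest, and some shared one. Of the 10, 9 had the same highest gate in both libraries among the 17 gates compared, the exception being Gclc.

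**Figure D1:**
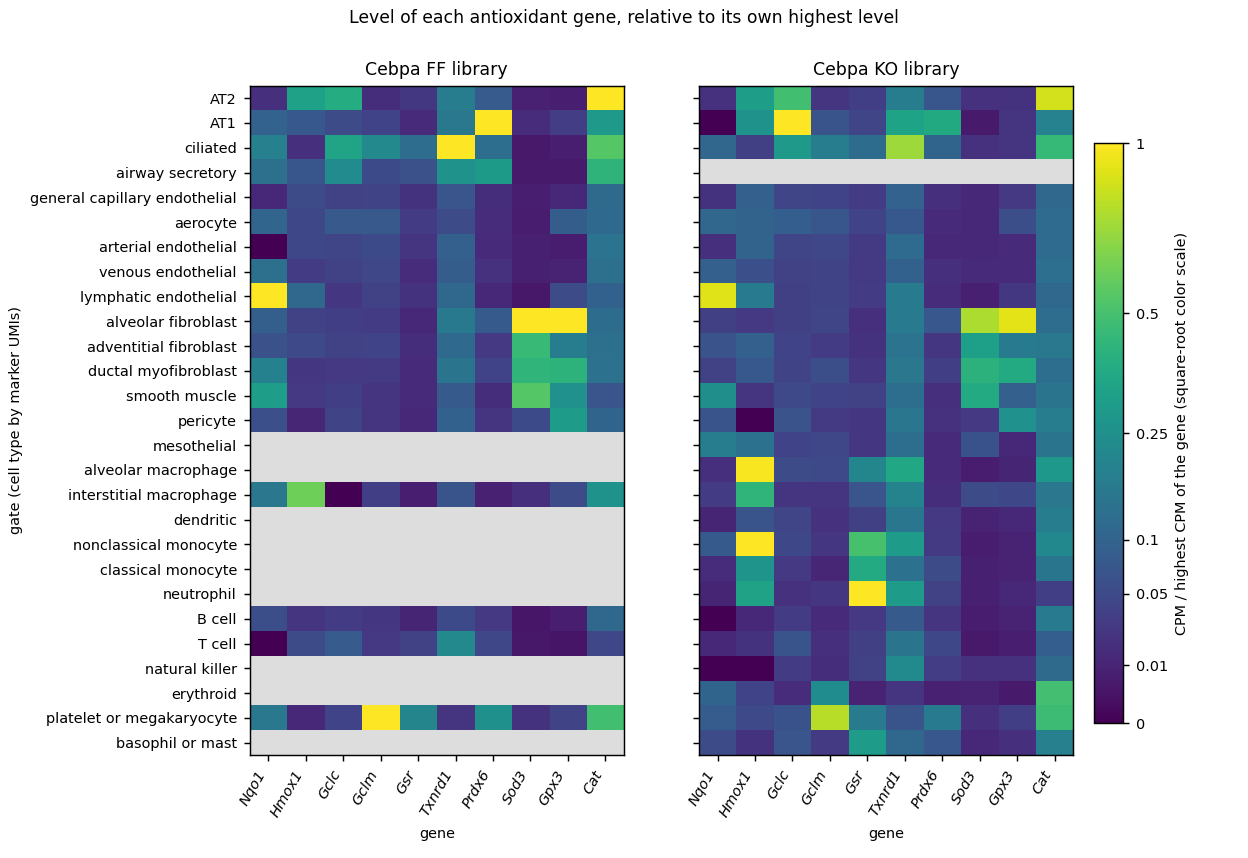
Level of each antioxidant gene (columns) in each gate (lines) of the Cebpa FF and Cebpa KO libraries, as CPM divided by the highest CPM of that gene over both libraries, on a square-root color scale. Gray marks gates with under 20 cells. Prdx6 is brightest in the AT1 gate, Sod3 and Gpx3 in the alveolar fibroblast gate, Gclm in the platelet or megakaryocyte gate, Txnrd1 in the ciliated gate, and Gsr in the Cebpa KO neutrophil gate, which has no counterpart with 20 cells in the Cebpa FF library.

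Glutathione synthesis starts with glutamate-cysteine ligase, made of a catalytic subunit (Gclc) and a modifier subunit (Gclm), and these subunits peaked in different cells. Gclc was highest in AT2-gated cells of the Cebpa FF library at 303 CPM (95% counting interval 292 to 314). The ciliated gate came next at 270 CPM, a small gap whose intervals did not overlap, and airway secretory-gated cells followed at 185 CPM. The median over 18 gates was 31.2 CPM, and the AT1 gate, also epithelial, lay near it at 40.9 CPM, below T cells and aerocytes. Gclm was at 28.2 CPM in the same Cebpa FF AT2-gated cells, its lowest gate in that library. Its highest level, 1649 CPM in the Cebpa FF and 1313 CPM in the Cebpa KO library, was in platelet or megakaryocyte-gated cells. Ciliated cells, the multiciliated cells that move mucus, were next in the Cebpa FF library at 364 CPM. In the Cebpa KO library erythroid-gated cells (390 CPM) and ciliated cells (296 CPM) followed with overlapping intervals. Over the gates with at least 50 cells, the log2 levels of Gclc and Gclm had a Pearson correlation of 0.13 in 14 Cebpa FF gates and 0.16 in 24 Cebpa KO gates. These correlations describe gates of 1 library that share its free RNA, and no test was made on them.

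The gene of the modifier subunit lies on the plus strand of chromosome 3 (GRCm38, chr3:122245557-122270732). Its promoter is shown because, of the 5 members found in the RefSeq promoter table (Cat, Gclm, Nqo1, Txnrd1 and Gpx3, with 7 windows), Gclm and Txnrd1 were the ones whose windows held the core of the antioxidant response element, TGACNNNGC on either strand. The windows run from 250 bases before to 50 bases after the start site, 300 bases in all (RefSeq, build GRCm38.p6). Capitals mark the match, read here as its reverse complement, and it starts 134 bases before the start site in Gclm and 92 bases before it in 1 of 3 Txnrd1 windows. Over all genes 12.4% of 32851 windows held the core, so a match is a description and not evidence of a bound site.
Gclm, chr3:122245307-122245606, plus strand: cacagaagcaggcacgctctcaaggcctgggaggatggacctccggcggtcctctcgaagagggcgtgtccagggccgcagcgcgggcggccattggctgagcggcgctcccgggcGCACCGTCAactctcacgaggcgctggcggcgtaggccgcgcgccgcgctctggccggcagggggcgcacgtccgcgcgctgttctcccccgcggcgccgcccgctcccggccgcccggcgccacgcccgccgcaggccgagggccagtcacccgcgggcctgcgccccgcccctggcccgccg
Txnrd1, chr10:82858956-82859255, plus strand: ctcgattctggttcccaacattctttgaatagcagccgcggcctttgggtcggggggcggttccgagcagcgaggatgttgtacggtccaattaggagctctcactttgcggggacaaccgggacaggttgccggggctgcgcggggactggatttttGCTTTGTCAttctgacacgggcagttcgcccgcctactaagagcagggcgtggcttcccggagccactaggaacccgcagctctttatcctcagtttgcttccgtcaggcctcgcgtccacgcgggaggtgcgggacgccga

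The reductases that recycle the thiol systems also parted. Gsr, glutathione reductase, was highest in platelet or megakaryocyte-gated cells of the Cebpa FF library at 265 CPM, followed by ciliated cells at 164 CPM. The Cebpa KO library added immune gates that the Cebpa FF library lacked, and there neutrophil-gated cells stood at 1270 CPM (1214 to 1327), nonclassical monocytes at 641 CPM and classical monocytes at 476 CPM. The levels of Gclm and Gsr correlated at 0.93 over 14 Cebpa FF gates and at -0.05 over 24 Cebpa KO gates, which include immune gates with too few cells in the Cebpa FF library and leave out the AT1 gate. Txnrd1, cytosolic thioredoxin reductase, was highest in ciliated cells in both libraries, at 410 CPM and 299 CPM. The next gates, airway secretory cells at 106 CPM in the Cebpa FF and alveolar macrophages at 145 CPM in the Cebpa KO library, stood well apart from it.

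The peroxidases marked alveolar cells. Prdx6, a peroxiredoxin with phospholipase activity that also serves surfactant phospholipid turnover, stood at 4573 CPM (4390 to 4762) in AT1-gated cells of the Cebpa FF library, the flat cells of gas exchange. Airway secretory cells (1349 CPM) and platelets or megakaryocytes (1151 CPM) came next with overlapping intervals, and the median gate had 128 CPM. In the Cebpa KO library the AT1 gate was again the highest, at 1698 CPM. Cat, catalase, which breaks down hydrogen peroxide in peroxisomes, was highest in AT2-gated cells at 360 CPM in the Cebpa FF and 312 CPM in the Cebpa KO library. Ciliated cells (195 CPM) and erythroid cells (178 CPM) were second in the respective libraries.

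The secreted enzymes were mesenchymal. Gpx3, the extracellular glutathione peroxidase, stood at 2504 CPM in alveolar fibroblasts of the Cebpa FF library and 2301 CPM in those of the Cebpa KO library, with ductal myofibroblasts next at 1041 CPM and 933 CPM. Sod3, the matrix-bound extracellular superoxide dismutase, was highest in the same gate at 993 CPM and 761 CPM, against medians of 8.12 CPM over the 18 Cebpa FF and 13.3 CPM over the 26 Cebpa KO gates. Pericytes separated this pair of genes. They held 750 CPM of Gpx3 and 50.6 CPM of Sod3 in the Cebpa FF library, the third highest gate for Gpx3 and the fifth for Sod3. Within the capillary endothelium Gpx3 also divided the neighbouring types, with 215 CPM in Cebpa FF aerocytes, the large gas-exchange capillary cells, and 30.3 CPM in general capillary cells.

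Hmox1 and Nqo1 act on heme and quinones. Hmox1, heme oxygenase 1, which degrades heme, had its highest values in macrophage and monocyte gates. In the Cebpa FF library this order was not settled. Interstitial macrophage-gated cells of the Cebpa FF library held 93.3 CPM from 10 UMIs (44.7 to 172), and AT2-gated cells held 50.4 CPM, within that interval. In the Cebpa KO library nonclassical monocytes (154 CPM) and alveolar macrophages (151 CPM) led and did not differ beyond counting error. Nqo1, a quinone reductase widely used as a readout of NRF2 activity, was a lymphatic endothelial transcript, with 59.5 CPM in the Cebpa FF and 53.9 CPM in the Cebpa KO library. Smooth muscle followed at 18.7 CPM and 14.8 CPM. In AT2-gated cells it stood at 1.07 CPM from 10 UMIs and at 1.24 CPM from 2 UMIs, too few to compare.

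The libraries were then compared within gates. A gene was compared in a gate when at least 5 UMIs were expected in each library at its pooled level, and 145 of the 170 member and gate pairs met this. Counts under 3 were set to 3 before a ratio was formed. Of these, 19 pairs (13.1%) were at least 2-fold higher in the Cebpa KO library, beside 6.76% of all 156682 gene and gate pairs. A further 3 pairs, 2.07%, were at least 2-fold lower, beside 3.48% of all pairs. The intervals of 16 of these 22 pairs, which were picked by the size of their ratios, lay wholly above or below a ratio of 1. Of all 145 compared pairs, 52 had such an interval, and the share over all genes is not given here. By gene, 5 of the 22 pairs beyond 2-fold belonged to Gpx3, 4 to Gsr, 3 to Hmox1 and 3 to Txnrd1, while Gclm passed 2-fold in none of its 16 gates. Of the 22 pairs, 20 kept their direction and 10 stayed beyond 2-fold in every other setting in which they could be compared. These settings numbered 12, and single pairs could be compared in 8 to 12 of them. Not every setting could move a ratio, since a doubled minimum of expected counts only drops pairs. A floor of 1 count alters only pairs with a count under 3, and leaving out AT1-gated cells chosen for their Gclc alters only AT1 pairs. The exceptions in direction were Txnrd1 and Gclc in AT1-gated cells. That of Gclc arose where cells chosen for their Gclc were left out, which the choice itself fixes. No member passed 2-fold in 6 of the 17 gates. Among these, 3.62% and 3.16% of all genes were 2-fold higher and lower in venous endothelium, 4.44% and 5.73% in lymphatic endothelium, and 2.93% and 3.35% in alveolar fibroblasts. The same percentages were 4.14% and 2.59% in adventitial fibroblasts, 3.31% and 5.71% in pericytes, and 7.0% and 1.71% in T cells.

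**Figure D2:**
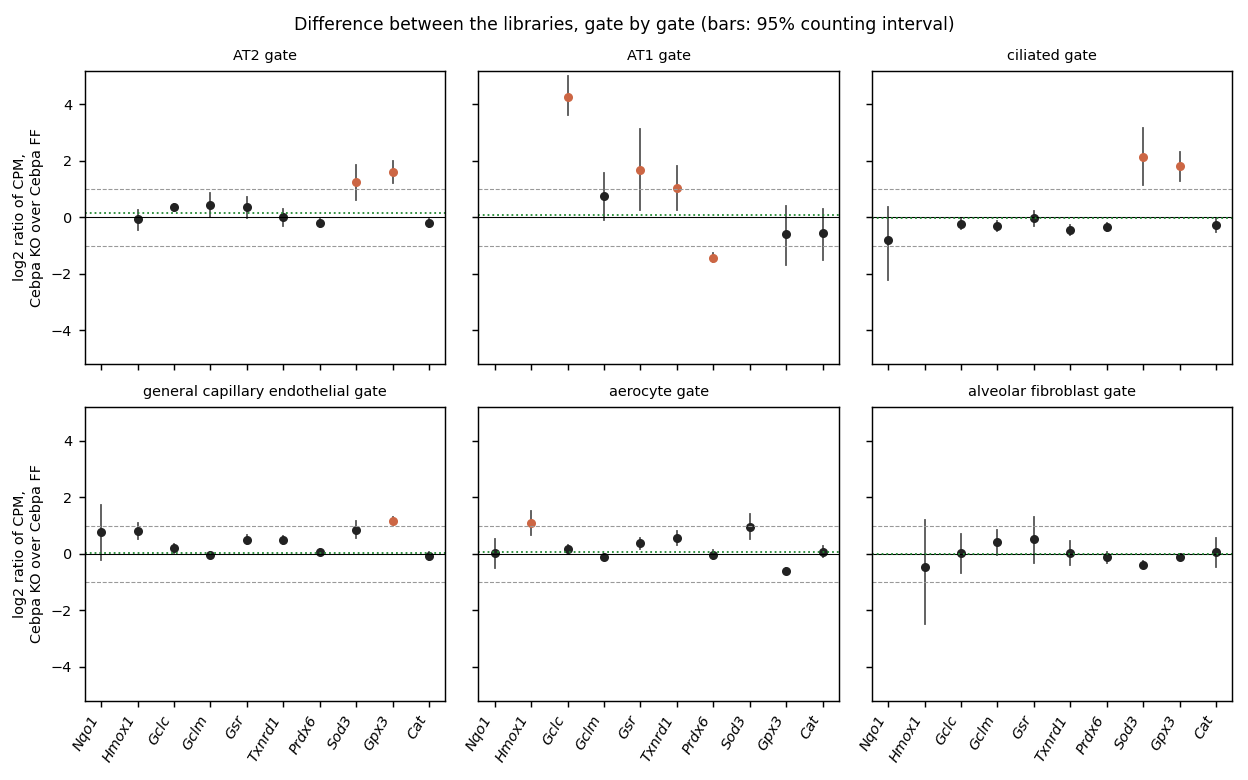
Log2 ratio of CPM, Cebpa KO over Cebpa FF, for the antioxidant genes compared in 6 gates, with 95% counting intervals (vertical lines). Orange points are beyond 2-fold (dashed lines), and the green dotted line is the median of all genes of the gate. Sod3 and Gpx3 stand high in the AT2 and ciliated panels, and in the AT1 panel Gclc is at 4.28 and Prdx6 at -1.43.

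In AT2-gated cells, where the deletion was driven, the core NRF2 targets were close in the libraries. The gate is drawn from AT2 markers, Abca3 among them. The paper reports less Abca3 staining in lineage-traced AT2 cells after Cebpa deletion. Cells that lost such markers can fall outside the gate, so the values describe cells that kept enough of them. Hmox1 stood at 50.4 CPM and 47.7 CPM in the Cebpa FF and Cebpa KO library, a log2 ratio of -0.08 (-0.44 to 0.27). Txnrd1 was at 73.4 CPM and 73.2 CPM. The glutathione synthesis genes lay slightly higher in the Cebpa KO library. Gclc was at 303 CPM and 387 CPM, a log2 ratio of 0.35 (0.23 to 0.48), and Gclm at 28.2 CPM and 38.4 CPM, a ratio of 0.45 (0.03 to 0.85). Gsr was at 33.8 CPM and 43.4 CPM, with an interval that reached below 0 (-0.04 to 0.74). These ratios stand against a median of 0.15 over the 10682 genes compared in this gate. Cat and Prdx6 were slightly lower, by log2 ratios of -0.20 (-0.34 to -0.07) and -0.21 (-0.34 to -0.07). In cells of at least 3000 UMIs (440 and 76 cells) Gclc was at 0.48 (0.35 to 0.61) and Prdx6 at -0.16 (-0.30 to -0.02). There the intervals of Gclm (0.41, -0.06 to 0.85), Gsr (-0.06, -0.55 to 0.41) and Cat (-0.09, -0.23 to 0.06) held 0. The median of all genes in these deeper cells was 0.09. Over all cells of the gate, the median over the 9 members compared was 0.35. When cells were thinned to 1000 UMIs it was -0.18 over 8 members, beside 0.22 for all genes. With free RNA subtracted it was -0.039 over 8 members, beside 0.10. These medians thus do not cover the same set of members.

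Of the 9 members compared without these steps, 2 were at least 2-fold higher in the Cebpa KO AT2 gate, where 5.49% of all genes were. In that comparison 0 were 2-fold lower, where 1.15% of all genes were. Gpx3 had 164 UMIs (17.5 CPM) in the Cebpa FF and 86 UMIs (53.3 CPM) in the Cebpa KO library, a log2 ratio of 1.61 (1.21 to 1.99). Sod3 had 78 UMIs (8.32 CPM) and 32 UMIs (19.8 CPM), a ratio of 1.25 (0.61 to 1.86). Both levels are small beside those of fibroblasts. The endothelial markers Pecam1, Cdh5 and Cldn5, which AT2 cells should lack, moved the same way in this gate, from a summed 231 CPM to 635 CPM (log2 ratio 1.46, 1.35 to 1.57), and the mesenchymal markers Col1a2, Pdgfra and Pdgfrb from 35.5 CPM to 56.4 CPM. Ptprc, the pan-leukocyte gene, stood at 0.213 CPM and 27.3 CPM. Free RNA, sized from markers of other lineages, was estimated at 7.02% of the Cebpa FF and 12.9% of the Cebpa KO AT2 profile, and the part of doublets in the Gpx3 and Sod3 ratios was not tested. With the free RNA subtracted, Gpx3 kept its direction at a log2 ratio of 5.59, which rests on a Cebpa FF count at the floor of 3, and Sod3 had too few UMIs to compare. Among cells of at least 3000 UMIs (440 and 76 cells), Gpx3 had 130 and 51 UMIs, a ratio of 1.47 (0.98 to 1.95), and Sod3 was under 2-fold at 0.93 (0.16 to 1.64). Gpx3 was under 2-fold, at 0.57 (-0.34 to 1.46), in cells thinned to 1000 UMIs each, and at 0.53 as a mean of the CPM of single cells.

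In AT1-gated cells the genes went apart. This gate was small, with 119 Cebpa FF and 49 Cebpa KO cells, and 3 of 7 compared members were at least 2-fold higher and 1 was lower, where 12.6% and 11.8% of all genes were. Prdx6, the hallmark of this gate, had 2348 UMIs (4573 CPM) in the Cebpa FF and 334 UMIs (1698 CPM) in the Cebpa KO library, a log2 ratio of -1.43 (-1.60 to -1.26). Gclc went the other way, from 21 UMIs (40.9 CPM) to 156 UMIs (793 CPM), a ratio of 4.28 (3.61 to 5.01). Of the latter, 152 came from 5 cells, which held 72, 47, 18, 10 and 5 Gclc UMIs. Thinned to 1000 UMIs per cell, the ratio of Prdx6 was -1.01 and that of Gclc 1.43 (-0.23 to 3.20).

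**Figure D3:**
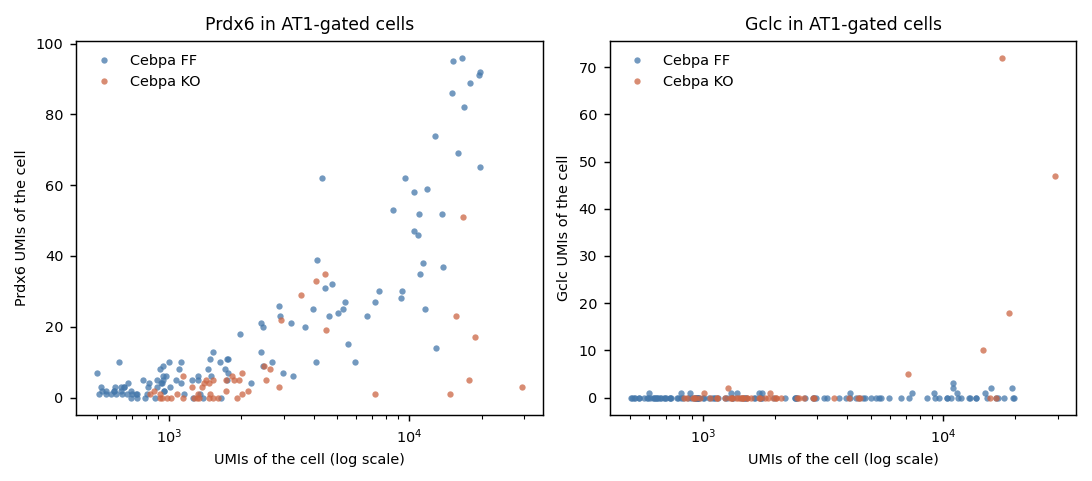
UMIs of Prdx6 (left) and Gclc (right) in each AT1-gated cell against the total UMIs of the cell (log scale), with Cebpa FF cells in blue and Cebpa KO cells in orange. Prdx6 reaches 96 UMIs in a Cebpa FF cell and 51 UMIs in a Cebpa KO cell, and no cell holds over 3 Gclc UMIs except 5 Cebpa KO cells of 5 to 72 UMIs.

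These 5 cells, chosen after their Gclc values were seen, had a median of 17648 UMIs and read differently from the rest of the gate. The keratin gene Krt8 stood in them at 3375 CPM, against 606 CPM in the other 44 Cebpa KO and 540 CPM in the 119 Cebpa FF AT1-gated cells. Krt18 was at 3728 CPM and Areg, the gene of an epidermal growth factor receptor ligand, at 2485 CPM. Sfn, a cell cycle inhibitor of the 14-3-3 family, was at 1904 CPM. In the other 44 cells these genes stood at 679 CPM, 138 CPM and 55.0 CPM. However, 1 cell held 176 of the 327 Krt18 UMIs and 1 cell 145 of the 218 Areg UMIs. Areg and Sfn were each found in 4 of the 5 cells. Of the AT1 markers they held 151 UMIs of Ager and 95 of Aqp5 but 3 of Hopx and 0 of Rtkn2 and Spock2, so they passed the gate without several of its markers. Txnrd1 was at 262 CPM in them and Prdx6 at 308 CPM. Without them, as their choice by Gclc fixes, Gclc was left with 4 UMIs (36.7 CPM) in the Cebpa KO AT1 gate. Txnrd1, at 1.05 with them, was at -0.85 (-2.81 to 0.64) without them. Gsr, at 1.67 with them, was at 1.65 but with an interval that reached 0 (-0.12 to 3.30). Prdx6 was still lower in the remaining 44 cells, at 2817 CPM and a ratio of -0.70 (-0.88 to -0.53), under 2-fold. In these cells the gate markers Ager (17331 CPM in Cebpa FF, 8321 CPM in the remaining Cebpa KO cells), Hopx (6691 CPM and 3716 CPM) and Rtkn2 (1182 CPM and 440 CPM) were lower too, and their part in the Prdx6 value was not tested.

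Ciliated-gated cells kept their set of enzymes at slightly lower levels. Txnrd1 was at 410 CPM in the Cebpa FF and 299 CPM in the Cebpa KO library, a log2 ratio of -0.46 (-0.63 to -0.28). Prdx6 went from 600 CPM to 477 CPM (-0.33), Gclm from 364 CPM to 296 CPM (-0.30) and Gclc from 270 CPM to 231 CPM (-0.22), each with an interval below 0, as was that of Cat (-0.27). In cells of at least 3000 UMIs (200 and 46 cells) Txnrd1 (-0.32) and Prdx6 (-0.21) still had intervals below 0, whereas those of Gclc (-0.09, -0.31 to 0.14), Gclm (-0.19, -0.40 to 0.01) and Cat (-0.11, -0.38 to 0.15) held 0. Gsr did not differ beyond counting error, at 164 CPM and 159 CPM. The median of all genes in this gate was -0.03. Again the secreted enzymes were higher, 2 of 9 members where 7.19% of all genes were, and 0 members were 2-fold lower, where 2.34% were. Gpx3 had 60 and 66 UMIs (17.5 CPM and 61.1 CPM, ratio 1.80, 1.28 to 2.33) and Sod3 16 and 22 UMIs (4.67 CPM and 20.4 CPM, ratio 2.13, 1.13 to 3.15). In the deeper cells Gpx3 was at 1.22 and Sod3 had too few UMIs to compare. The endothelial markers stood at 286 CPM and 786 CPM beside them, and the mesenchymal markers at 31.5 CPM and 70.3 CPM. The free RNA estimates were 7.72% and 22.1% of the profile of this gate. Gpx3 stayed at least 2-fold higher here in all 12 other settings, free RNA subtraction among them, with log2 ratios from 1.22 to 5.27. The doubled minimum of expected counts, the floor of 1 count and the choice of AT1-gated cells could not move this ratio. Whether its Cebpa FF count fell to the floor of 3 after subtraction is not given here. For the other ratios of this gate, the lower ones of Txnrd1, Prdx6, Gclm, Gclc and Cat included, subtracted values are not given here. The part of free RNA in the ratios of this gate was not tested.

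In endothelial gates, which hold the most cells, differences were mostly under 2-fold. In general capillary cells (4882 and 3410) 1 of 10 members was 2-fold higher in the Cebpa KO library, where 9.54% of all genes were, and 0 were lower, where 2.23% were. This was Gpx3, with 714 UMIs (30.3 CPM) and 1167 UMIs (68.4 CPM), a log2 ratio of 1.18 (1.04 to 1.31). Hmox1 was at 8.26 CPM and 14.4 CPM (0.80, 0.52 to 1.08), Sod3 at 7.25 CPM and 13.1 CPM (0.85, 0.56 to 1.15), Gsr at 27.4 CPM and 38.8 CPM (0.50) and Txnrd1 at 28.9 CPM and 40.6 CPM (0.49). In cells of at least 3000 UMIs the ratios of Sod3 (0.43, 0.09 to 0.77) and Gsr (0.32) were smaller. Those of Hmox1 (0.83) and Txnrd1 (0.48) were alike. Over all cells of the gate Prdx6 (76.6 CPM and 81.0 CPM), Gclm and Cat had intervals that held 0. Genes of other cell types were higher beside them. In the same cells the mesenchymal markers went from 24.8 CPM to 67.1 CPM (log2 ratio 1.43), Ptprc from 1.02 CPM to 40.1 CPM and the neutrophil genes S100a8 and S100a9 from a summed 5.09 CPM to 397 CPM. The part of such transcripts in the Hmox1, Gsr, Sod3 and Gpx3 values was not tested. With estimated free RNA subtracted, a step that does not remove doublets, the log2 ratio of Gpx3 was 1.96.

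Gpx3 ran the opposite way in aerocytes, its highest endothelial gate. It had 2187 UMIs (215 CPM) in the Cebpa FF and 1429 UMIs (143 CPM) in the Cebpa KO library, a log2 ratio of -0.59 (-0.69 to -0.50). In lymphatic endothelium it was at 132 CPM and 66.7 CPM (-0.99, -1.68 to -0.34). In arterial cells it was at 16.5 CPM and 39.0 CPM (1.24, 0.56 to 1.96). With cells of at least 3000 UMIs the arterial ratio was under 2-fold, at 0.78 (0.03 to 1.56), and that of general capillary cells was 1.03. Hmox1 was 2-fold higher in aerocytes (7.37 CPM and 15.7 CPM, 1.09) and in arterial cells (7.25 CPM and 15.8 CPM, 1.13). In aerocytes 9.45% of all genes were that much higher and 1.59% lower, and in arterial cells 5.92% and 4.26%. Thinned to 1000 UMIs per cell, the aerocyte ratio of Hmox1 was 0.47 (-0.57 to 1.58). Ptprc stood beside it at 1.38 CPM and 41.6 CPM in aerocytes and at 0.659 CPM and 39.6 CPM in arterial cells, and S100a8 and S100a9 at a summed 5.21 CPM and 493 CPM and at 1.98 CPM and 322 CPM. The mesenchymal markers went from 23.7 CPM to 64.4 CPM in arterial cells, and the part of such transcripts in the Hmox1 and Gpx3 values was not tested. Nqo1, by contrast, was at 6.39 CPM and 6.49 CPM in aerocytes and did not differ beyond counting error in lymphatic cells (-0.15, -0.98 to 0.65).

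In 3 mesenchymal gates Sod3 was lower in the Cebpa KO library, by less than 2-fold. Sod3 in alveolar fibroblasts had 2519 UMIs (993 CPM) and 706 UMIs (761 CPM), a log2 ratio of -0.38 (-0.51 to -0.26). In adventitial fibroblasts it was at 453 CPM and 317 CPM (-0.52) and in smooth muscle at 536 CPM and 371 CPM (-0.53). Ductal myofibroblasts, which surround the alveolar ducts, did not differ beyond counting error, at 427 CPM and 411 CPM. Gpx3 was 2-fold lower in smooth muscle alone among these gates, with 308 UMIs (640 CPM) in 82 cells and 127 UMIs (235 CPM) in 83 cells, a ratio of -1.44 (-1.75 to -1.14). In that gate 6.34% of all genes were as much lower and 7.34% as much higher. The ratio was -0.69 (-1.41 to 0.01) in cells thinned to 1000 UMIs and -0.94 as a mean of the CPM of single cells. In alveolar fibroblasts it was at 2504 CPM and 2301 CPM (-0.12, -0.19 to -0.05).

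The last 2-fold pairs rested on few UMIs. In interstitial macrophages Gsr (1 and 46 UMIs), Txnrd1 (3 and 43) and Prdx6 (4 and 42) were higher in the Cebpa KO library, where 15.3% of all genes were and 2.66% were lower. The gate had 24 and 125 cells, and 2 of the 3 intervals held 0. Gsr was higher in B cells (4 and 69 UMIs, ratio 1.36, -0.07 to 3.27, where 8.37% of all genes were higher and 0.921% lower) and in smooth muscle (9 and 26 UMIs, 1.37), and Cat in smooth muscle (12 and 29 UMIs, 1.11). S100a8 and S100a9 stood at 0 and 2387 CPM in interstitial macrophages and at 3.43 CPM and 1656 CPM in B cells. Mesenchymal markers stood at 28.0 CPM and 173 CPM in the former. In smooth muscle the endothelial markers went from 135 CPM to 799 CPM, and S100a8 and S100a9 from 2.08 CPM to 261 CPM. There 4 surfactant genes went down, from 964 CPM to 241 CPM. The part of such transcripts in these Gsr values, and in the Cat, Gpx3 and Sod3 values of smooth muscle, was not tested. In ductal myofibroblasts, where 5.78% of all genes were 2-fold higher and 4.23% lower, Nqo1 had 18 and 2 UMIs (-1.73, -4.13 to 0.05) and Hmox1 6 and 10 UMIs (1.60, -0.01 to 3.34). The platelet or megakaryocyte gate, where Gclm is highest, had a Gclm ratio of -0.33 (-0.49 to -0.17) and a Gsr ratio of -0.29 (-0.70 to 0.10), and Prdx6 there was at 1151 CPM and 777 CPM (-0.57). Txnrd1 was 2-fold higher in it on 5 and 11 UMIs (1.55, -0.09 to 3.42), where 11.1% of all genes were and 4.43% were lower.

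Because depth differed so much between the libraries, the share of cells with at least 1 UMI was also measured after each cell had been thinned to 1000 UMIs, leaving out shallower cells. The intervals (exact Clopper-Pearson) of 16 of 170 member and gate pairs then did not overlap, all among the 145 compared above. Of those 145, 6.9% were higher and 4.14% lower in the Cebpa KO library, beside 2.96% and 1.37% of all gene and gate pairs. At 500 UMIs per cell, a depth chosen after seeing the data, 8 of the 16 still lay apart. At that depth 3.45% of the 145 were higher and 2.76% lower, beside 1.93% and 0.927% of all gene and gate pairs. In the AT1 gate 92.2% of 77 Cebpa FF cells (83.8 to 97.1) and 62.8% of 43 Cebpa KO cells (46.7 to 77.0) held Prdx6, while unthinned shares were 94.1% and 75.5%. As a background, the gate of at least 50 cells with the lowest thinned share had 3.16% in the Cebpa FF and 5.17% in the Cebpa KO library (arterial endothelium and interstitial macrophages). Txnrd1 in ciliated cells was found in 31.1% and 16.8%, and Sod3 in alveolar fibroblasts in 59.7% and 46.6%. The opposite directions of Gpx3 in the capillary types were also seen at matched depth, with 18.4% and 13.7% of aerocytes and 2.67% and 6.56% of general capillary cells. At 500 UMIs the intervals of the aerocytes (10.7% and 8.55%) and of ciliated Txnrd1 (16.7% and 11.7%) overlapped. In AT2-gated cells Gpx3 was in 2.39% of 460 Cebpa FF and 7.86% of 229 Cebpa KO cells. Over gates of at least 50 cells the lowest shares were 0.862% and 1.04%, the latter from 1 of 96 natural killer-gated cells. The medians over these gates were 9.22% and 7.21%, so the AT2 share of the Cebpa KO library lay near its median. At 500 UMIs (2.06% and 5.37%) the intervals of Gpx3 in the AT2 gate overlapped too. Gclc in AT2-gated cells was alike, at 22.6% and 22.3%, and Cat, at 30.9% and 21.4%, had overlapping intervals. Nqo1 was in 0 of 229 thinned Cebpa KO AT2-gated cells, whose exact interval reaches 1.60%.

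**Figure D4:**
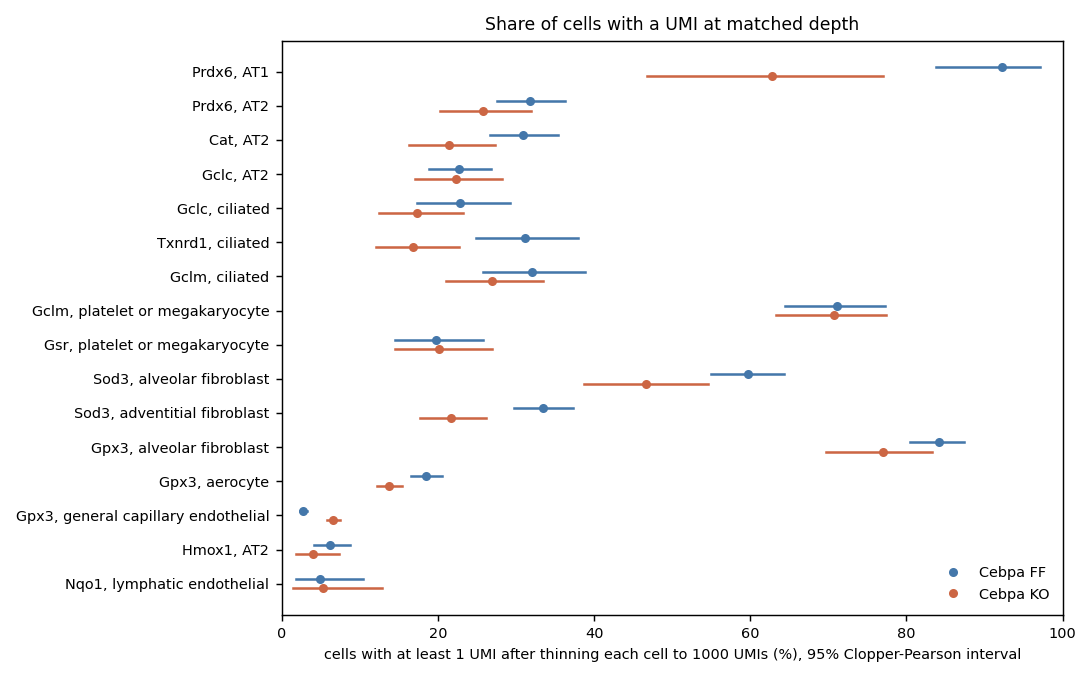
Share of cells with at least 1 UMI of a gene in a gate after thinning to 1000 UMIs per cell, in percent with 95% Clopper-Pearson intervals. The Cebpa FF library is in blue and the Cebpa KO library in orange. The gene and gate pairs were chosen, mainly where a gene was high, whether or not their intervals overlapped. Gpx3 in general capillary cells is a pair where the gene was low. Prdx6 in the AT1 gate lies apart at 92.2% and 62.8%, whereas Gclm in platelets or megakaryocytes (71.2% and 70.7%) coincides.

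The genes whose levels ran most like those of each member over 14 Cebpa FF gates of at least 50 cells were also found, with the same correlation over 24 Cebpa KO gates, as a description of these libraries. They were picked by their Cebpa FF value alone. The Cebpa KO gates add immune gates and leave out the AT1 gate, so paired values do not measure a difference between the libraries. Sod3 ran with Adamts8 (Pearson r 0.99 in the Cebpa FF and 0.95 in the Cebpa KO gates). Gpx3 ran with Etv1 (0.94 and 0.89) and C1qtnf7 (0.93 and 0.95), and Sod3 and Gpx3 with each other (0.85 and 0.87). For Gclc the closest were B4galnt1 (0.98 and 0.07) and C2cd4b (0.97 and 0.86), of which the first was not alike in the Cebpa KO gates. For Prdx6 they were Tom1l1 (0.93 and 0.70) and Unc13d (0.90 and 0.75), for Cat Pip5k1b (0.97 and 0.46) and Scgb1a1 (0.94 and 0.56), and for Txnrd1 Tmem220 (0.96 and 0.45) and Nek4 (0.95 and 0.52). Gclm ran with Smox (0.95 and 0.67) and Ubxn6 (0.95 and 0.36), and Gsr with Lat (0.95 and 0.31) and Wbp1 (0.94 and -0.09). Hmox1 ran with Zdhhc3 (0.92 and 0.41) and Abca3 (0.89 and 0.46), and Nqo1 with Inpp4a (0.91 and 0.23) and Ank (0.86 and 0.48). Abca3 is a marker of the AT2 gate, so its levels over the gates are partly set by the gating itself.

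A wider list of 62 other antioxidant genes in 8 roles gave the setting. Over all gates 826 of their gene and gate pairs could be compared, of which 36 (4.36%) were at least 2-fold higher and 11 (1.33%) lower in the Cebpa KO library, beside the same 6.76% and 3.48% of all pairs. In AT2-gated cells 57 could be compared, with a median log2 ratio of 0.06. Of these, 1 (1.75%) was 2-fold higher and 0 were lower, beside 5.49% and 1.15% of all genes in this gate. The regulators of NRF2 activity passed 2-fold in 0 of 8, too few genes to tell apart from those shares. Nfe2l2 itself was at 210 CPM and 213 CPM, and Keap1 at 44.9 CPM and 45.9 CPM. The superoxide dismutases, glutathione peroxidases and glutaredoxins, thioredoxin system, NADPH supply and iron genes had 0 members beyond 2-fold there. The exception was Gsto1, an omega-class glutathione transferase, with 22 UMIs (2.35 CPM) and 20 UMIs (12.4 CPM), a log2 ratio of 2.40 (1.45 to 3.34). In AT1-gated cells 7 of 43 (16.3%) were 2-fold higher and 3 (6.98%) lower, beside 12.6% and 11.8% of all genes. Pgd and Taldo1 of the pentose phosphate pathway were among the higher (31.2 CPM and 127 CPM for Pgd, 150 CPM and 341 CPM for Taldo1), as were Gpx2 (1 and 19 UMIs, of which 18 lay in the 5 Gclc-rich cells), Mafg, Sqstm1, Prdx4 and Mgst1. Gsta3, Gstm2 and Gpx8 were lower, Gsta3 at 267 CPM and 96.6 CPM. The 5 Gclc-rich cells had a median of 17648 UMIs, against 1526.5 in the other 44 Cebpa KO cells of this gate. Their part in the values of these genes other than Gpx2 is not given here. In general capillary cells 6 of 59 (10.2%) were higher, a share near the 9.54% of all genes. They included Slc7a11, the cystine importer, with 5 and 83 UMIs. Slc7a11 stood at 1229 CPM in Cebpa KO neutrophil-gated cells, whose S100a8 and S100a9 transcripts were also higher there, and the part of free neutrophil RNA in the value was not tested.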

How the data were processed

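The study was read from 2 libraries, 1 per genotype. The authors aligned reads to mm10 with Cell Ranger 6.1.1 per the labels (the matrix header names 5.0.0), and the deposited values are raw UMI counts per gene and barcode, not normalized. A barcode was kept from 200 detected genes upward unless over 20% of its UMIs were mitochondrial. A cell entered the gate with its highest relative marker score, given at least 3 UMIs from at least 2 markers and a score over 0.05. Cells in which another lineage scored over 0.5 of that were left out as cells with markers of 2 lineages (214 Cebpa FF, 1243 Cebpa KO). No doublet caller was run. The form of the score was settled after seeing the data, and the members, marker lists and pathway lists were chosen with earlier results of these data known. Summed counts were scaled to CPM. Intervals are exact Poisson for levels, exact conditional binomial for ratios and Clopper-Pearson for shares, at 95%. The named genes were the 10 members, the 2 genes most like each (1 of them is not reported here), other antioxidant genes beyond 2-fold in AT2-gated cells, and up to 10 in each further gate described. Calculations used Python 3.11.15, numpy 2.4.6 and scipy 1.17.1 and were tested on simulated data.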

Additional observations from a re-analysis of the deposited data

Results flagged for a closer look

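Cells that entered no gate are not part of the comparisons above, and some members were higher in them in the Cebpa KO library. Nqo1 stood at 19.1 CPM in 1092 Cebpa KO cells with no gate, against 3.87 CPM in 585 Cebpa FF cells. Of its 29 UMIs, 22 lay in 1 cell of 48345 UMIs that also held 309 UMIs of Krt5, 403 of Krt15, 199 of Krt14, keratin genes of basal cells, and 52 of Gpx2. Hmox1 was at 28.3 CPM against 9.03 CPM and Gsr at 125 CPM against 21.9 CPM in cells with no gate. In cells with markers of 2 lineages Gsr was at 123 CPM against 41.8 CPM.

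Prdx6 and Gpx3 were the members with pairs beyond 2-fold in both directions, and these differences between gates were not tested. Others, such as Sod3, were beyond 2-fold in 1 direction only but had intervals beyond 0 in both. Prdx6 had a log2 ratio of -1.43 in AT1-gated cells and one of 1.09 in interstitial macrophages, whose interval held 0. Gpx3 was higher in the Cebpa KO library in AT2 (1.61), ciliated (1.80), general capillary (1.18) and arterial endothelial (1.24) cells, and lower in smooth muscle (-1.44).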

How the results depend on the processing

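No paired analysis was possible because each genotype had 1 library. The counts of member pairs 2-fold higher (19 of 145) or lower (3) moved most with depth and weighting. With cells of at least 3000 UMIs, 14 gates could be compared. The AT1, interstitial macrophage and platelet or megakaryocyte gates fell away, and their pairs beyond 2-fold dropped out with them. Of the pairs left, 8 of 120 were higher (6.67%, beside 4.10% of all pairs). With the mean CPM of single cells 34 of 147 were higher and 8 lower (23.1% and 5.44%, beside 13.6% and 6.37%). The doubled minimum of expected counts left 11 of 121 higher (9.09%, beside 4.50%). After free RNA subtraction 16.1% of 137 were higher, beside 5.29%, and 6 were lower (4.38%, beside 4.33%). Thinned to 1000 UMIs per cell, 14.6% of 89 pairs were higher and 3.37% lower, beside 9.37% and 5.67%. For the other antioxidant genes (36 and 11 of 826), 16 of 693 were higher with cells of at least 3000 UMIs, beside 4.10% of all pairs. With the mean CPM 81 of 834 were higher and 33 lower, beside 13.6% and 6.37%. After thinning 30 of 565 were lower, beside 5.67%, and with free RNA subtracted 25 of 780, beside 4.33%. The AT2 median of the members went from 0.35 over 9 members to -0.18 after thinning and -0.039 after free RNA subtraction, each over 8 members. The median of all genes in this gate was 0.15, 0.22 and 0.10 in these settings. Thinning to 500 UMIs, chosen after seeing the data, gave 9 shares apart in place of 16, of which 8 were among those 16. At 500 UMIs 3.45% of member pairs were higher and 2.76% lower, beside 1.93% and 0.927% of all pairs. Txnrd1 in AT1-gated cells turned to -0.054 with the mean CPM and to -0.85 without the 5 Gclc-rich cells, an alternative added after seeing the data, and Gclc there to -0.16, which leaving out cells by their Gclc fixes. Gpx3 in AT2-gated cells was at 0.57 after thinning and 0.53 with the mean CPM, and in smooth muscle at -0.69 and -0.94. The cause of these moves was not tested. Leaving out shared barcodes, also added after seeing the data, left the member counts at 19 and 3. With 1 library per genotype, differences between mice, batches and genotypes cannot be told apart.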

Other observations

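The immune gates of the Cebpa KO library, which had too few Cebpa FF cells to compare, carried their own antioxidant profile. Neutrophil-gated cells were the highest gate of that library for Gsr (1270 CPM), Txn1, thioredoxin (2051 CPM), and Slc7a11 (1229 CPM), and the lowest for Cat (12.3 CPM). Alveolar macrophages were the highest for Prdx1 (1089 CPM) and the biliverdin reductase gene Blvra (172 CPM), beside Hmox1 at 151 CPM. Platelet or megakaryocyte-gated cells, present in both libraries, were the highest for Gpx4, the phospholipid hydroperoxide peroxidase (6046 CPM and 4998 CPM), Srxn1, sulfiredoxin (318 CPM and 229 CPM), and Taldo1 (3199 CPM and 2322 CPM), as for Gclm. Ciliated cells were the highest for Gpx2 (156 CPM and 125 CPM) in both libraries. All of these are levels of 1 library per genotype and no test was made on them.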
